A study of Caenorhabditis elegans with 4 samples.

Results

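The regions described here are 3616 peaks called from DPY-26 ChIP on the X chromosome of Caenorhabditis elegans embryos. They overlap peaks of ChIP replicate 2 that touch no peak of ChIP replicate 1. In the results below, a site is a called peak. They were taken from the series-level peak list, which holds 9882 peaks, 9008 of them on the X. A peak on the X was a member when it overlapped no replicate 1 peak, overlapped at least 1 replicate 2 peak by 1 bp or more, and none of those replicate 2 peaks touched a replicate 1 peak. Members made up 40.1% of the X peaks (Wilson 95% interval 39.1% to 41.2%, counting error only, with peaks taken as independent). A replicate 2 peak is called a domain below, because on the X these peaks were wide (median 2317 bp) and often held more than 1 of the narrower series-level peaks (median 312 bp).

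DPY-26 is the kleisin subunit, the part that closes the ring, of condensin I and of the condensin within the dosage compensation complex. That complex binds both X chromosomes of hermaphrodites and lowers their transcription, so that X-linked expression is near that of males with their single X. It is known to load at strong recruitment sites on the X and to spread from there along the chromosome, with lesser accumulation at many further places such as promoters of active genes. Sites of intermediate and low enrichment are therefore a regular feature of maps of this complex.

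Wild-type N2 embryos of mixed stages were collected from liquid culture by bleaching gravid adults. The labels give a growth temperature of 20 °C and a population of mixed sex. The embryos were fixed with 2% formaldehyde for 30 minutes, and 2 mg of extract entered each immunoprecipitation with a polyclonal antibody raised in rabbit against DPY-26 and purified by affinity, while 10% was kept as input. There were 2 ChIP and 2 input libraries, all of the same strain and stage, with no mutant or treated group, and no peak list of the inputs was used here. The whole embryo was the sample, so binding in single cells or tissues cannot be read from the lists. Nothing in the labels says whether the replicates came from separate cultures. Replicate 1 listed 1463 peaks and replicate 2 listed 2671, and the lists used here give no read counts, so the depth behind each peak is unknown. Positions are those of WormBase WS220, the build in the file headers. Neither a genome nor an annotation of that build was used here, so the sites are named by position, with no gene and no sequence.

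The positions of all 3 lists chose the members, and scores come from the same ChIP experiment. Every value below is therefore a description, and no test was made between members and other X peaks. Scores are the authors' own values per peak from their peak callers and have no stated scale. They are compared only within a list.

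The members were sites of low to intermediate score and moderate width. The lowest member scored 1.30 and the highest 75.02. The median was 7.48 (95% interval of the median 7.18 to 7.66, from binomial order statistics with peaks taken as independent). The quartiles lay at 4.55 and 13.0. X peaks that overlapped both replicates had a median of 51.1 and quartiles of 30.3 and 81.5, so most of the 2 distributions lay apart. They met at the edges: 129 of 3616 members (3.57%) reached the lower quartile of the sites found in both replicates, and 21 members reached their median. In the other direction, 21 of 1094 sites found in both replicates scored at or below the member median.

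Taken as a whole, the members scored close to the peaks that flank replicate 1 sites inside shared domains. These 1461 flanking X peaks had a median of 6.53 (interval 6.26 to 6.79) and a maximum of 68.9, and the member median lay 0.95 above theirs. The 2 classes are not made alike. Peaks on replicate 1 sites are left out of the flanking class, while members include the highest peak of each domain. Those highest members had a median of 12.8. The other members had a median of 5.14 (interval 5.04 to 5.31), below that of flanking peaks. The 2749 X peaks that touched no replicate peak had a median of 5.07 (interval 4.86 to 5.14). A score of 20 or more was reached by 389 members (10.8%), by 113 flanking peaks (7.73%), by 55 peaks that touched neither replicate (2.00%) and by 948 of the sites found in both replicates (86.7%). At the low end, 1057 members (29.2%) scored below 5.

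**Figure D1:**
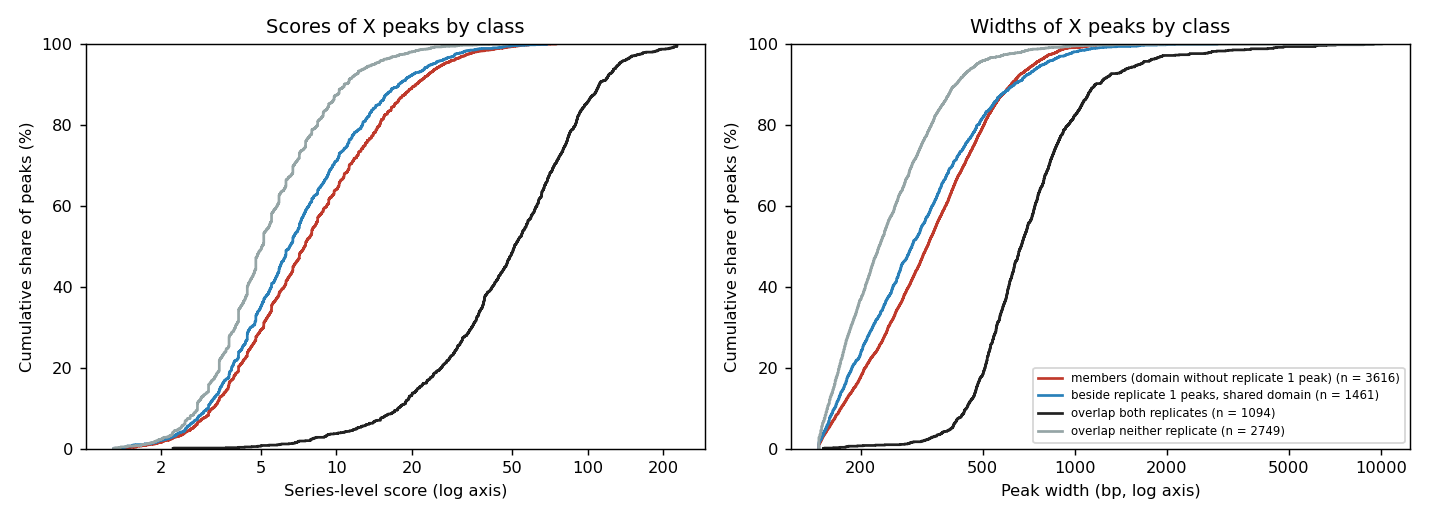
Cumulative share of X peaks of the series-level list by score (left) and by width in bp (right), both on log axes, for 4 classes of peaks. The curve of the 3616 members runs just to the right of the flanking peaks and well to the left of the 1094 sites found in both replicates, whose median score is 51.1 against 7.48.

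Widths followed the same order in these classes. Members were 146 bp to 1521 bp wide, with a median of 330 bp (interval 322 bp to 337 bp). The median was 294 bp for flanking peaks, 230 bp for peaks that touched neither replicate and 668 bp for sites found in both replicates. A further 88 X peaks, outside these classes, overlapped replicate 1 alone and had a median width of 808.5 bp and a median score of 21.5. Only 32 members (0.885%) were wider than 1000 bp, compared with 193 of the sites found in both replicates (17.6%). Broad sites were thus rare among members, and 1558 members (43.1%) were under 300 bp. Together the members covered 1339826 bp, which is 37.1% of all bases in X peaks of the list. Across members, higher scores went with greater widths (Spearman's rho 0.61 over 3616 peaks of the same list, given as a description).

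The members lay in 1629 domains. Of the 2542 replicate 2 peaks on the X, 1638 (64.4%) touched no replicate 1 peak, and all but 9 of these held a member. The 9 domains without any series-level peak scored 52.4 to 176.9 in replicate 2 and were 1399 bp to 4365 bp wide. Domains without a replicate 1 peak had lower replicate 2 scores than shared domains, with a median of 132.4 (quartiles 81.6 and 234.3) against 647.9 (quartiles 366.9 and 1037). They were also narrower, with medians of 2143 bp and 2786 bp. With replicate 2 reduced to its highest-scoring 1463 peaks, 602 domains held members and their median replicate 2 score was 287.9. The score ranges overlapped: 52 domains without a replicate 1 peak reached the median score of the shared ones, and 43 of 904 shared domains scored at or below the median of those without. Domains without a replicate 1 peak still made up 56.0% of the bases that replicate 2 covered on the X.

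Most domains held few members. There were 622 domains with 1 member (38.2%), 516 with 2 (31.7%), 276 with 3 (16.9%) and 215 with 4 or more (13.2%). The last group nevertheless held 1134 of the members (31.4%). These shares depend on how peaks are cut: with series-level peaks merged within 500 bp, 63.2% of domains held 1 member, and with replicate 2 reduced to the length of replicate 1, 18.9% did. Domains with more members were wider, from a median of 1536 bp with 1 member to 2167 bp with 2, 3046 bp with 3 and 7527 bp in the 25 domains with 8 or more. Their replicate 2 scores were higher as well, from a median of 100.1 with 1 member to 656.1 with 8 or more. The density of members per kb of full domain width hardly varied with the replicate 2 score. Full width includes the margins at both edges, described below, and the density without these margins was not computed. When the domains were ranked by replicate 2 score and split into 4 sets of like size, the lowest set held 0.822 members per kb and the highest 0.890.

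The highest member of a domain was somewhat higher where members were many, but single members were as high as the highest of 4 or 5. Single members had a median score of 13.8 and a median width of 480 bp. In domains with 2 members the median of the higher was 11.2, with 3 it was 12.0, with 4 and with 5 it was 13.0, with 6 it was 16.0, and with 8 or more it was 17.1. The other members were weaker, and the median over all members went from 13.8 in domains with 1 to 7.25 in domains with 2 and 5.87 in domains with 8 or more. Over all domains the highest members had a median score of 12.8 and a width of 428 bp, and the 1987 other members had medians of 5.14 and 262 bp.

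**Figure D2:**
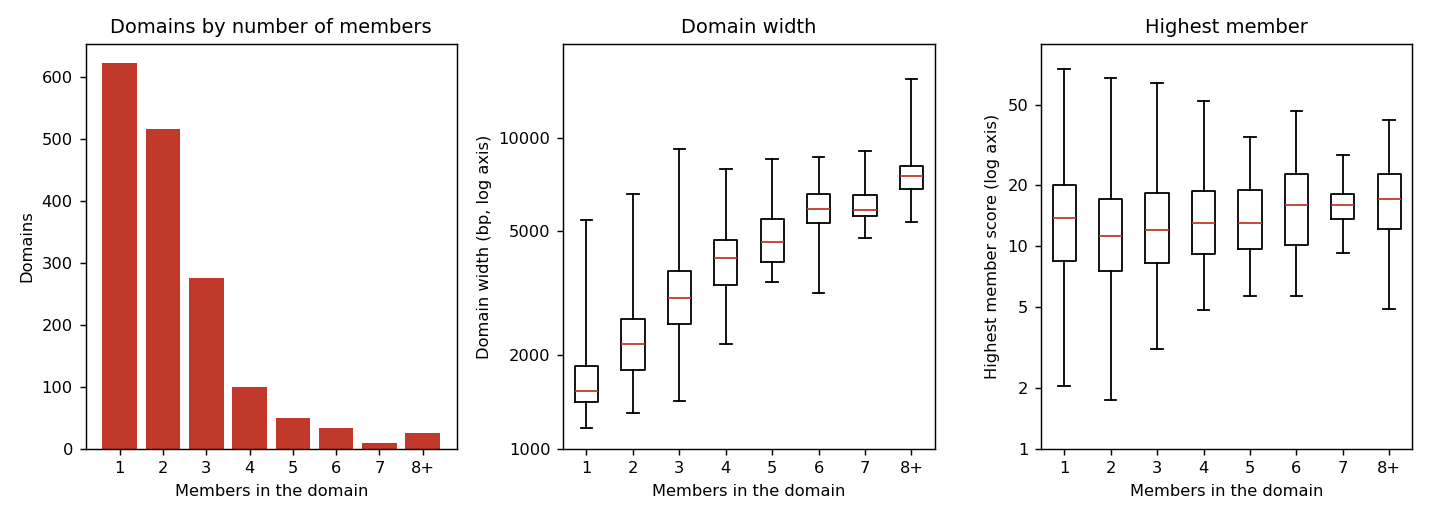
Domains without a replicate 1 peak, grouped by the number of members they hold: number of domains (left), domain width in bp on a log axis (middle) and the score of the highest member on a log axis (right). Boxes show quartiles and median and whiskers the full range. Median width climbs from 1536 bp with 1 member to 7527 bp with 8 or more, while the median of the highest member is 13.8 with 1 member, 11.2 with 2 and 17.1 with 8 or more.

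Members that shared a domain were hardly more alike in score than members of different domains. In the 1007 domains with 2 or more members, the intraclass correlation of log2 score was 0.043. The SD of log2 score was 0.97 within domains and 0.99 over all 2994 members concerned. The highest member scored a median of 1.77 times the next one (quartiles 1.28 and 2.81). It was at least 2 times the next in 426 domains (42.3%) and at least 5 times in 79, while in 202 domains the first 2 members were within a factor of 1.2. So some of these domains had a leading site and others had several sites of like score.

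Nearly all members lay well inside their domain. Of 3616 members, 3593 (99.4%) were wholly inside and 13 had their midpoint beyond the domain's edge. The distance between a domain's edge and the outermost member was similar from domain to domain. In domains with 1 member the median margin was 488.5 bp (quartiles 434 bp and 572 bp, over 1244 edges), and 968 of these edges (77.8%) had a margin of 300 bp to 600 bp. In domains with 2 or more members the median was 473.5 bp, and in shared domains, measured to their outermost series-level peak, it was 488 bp. Margins over 1000 bp occurred at 10.7% of the edges of domains with 1 member. At most edges a domain therefore reached past its outermost series-level peak by about this margin, and its width carries the margins of both sides. Both margins together had a median of 997.5 bp in domains with 1 member (quartiles 908 bp and 1318.5 bp). In domains with 2 or more members it was 954 bp (quartiles 822 bp and 1137 bp). The 2 edges of a domain were not counted jointly. The margins were alike in domains with and without a replicate 1 peak.

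**Figure D3:**
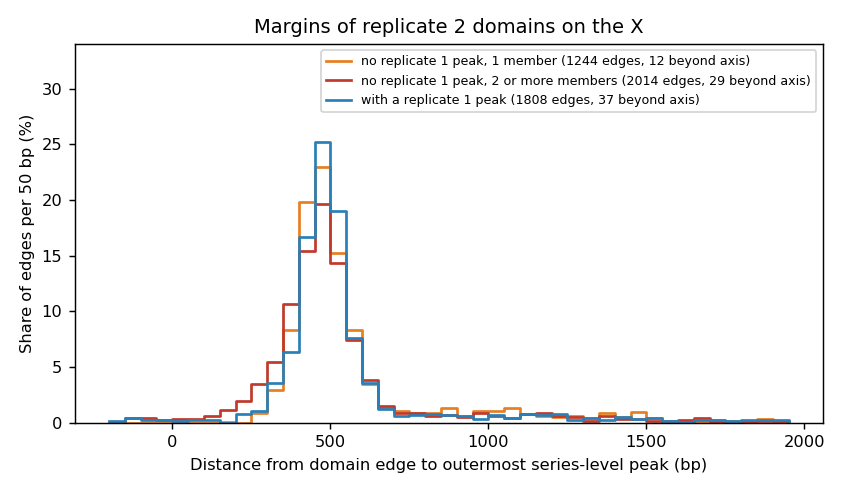
Distance in bp from each edge of a replicate 2 domain on the X to the outermost series-level peak inside it, as the share of edges per 50 bp; negative values are peaks that reach past the edge. The 3 kinds of domain peak at the same distance, with medians of 488.5 bp, 473.5 bp and 488 bp.

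Series-level peaks covered a median of 32.6% of a domain without a replicate 1 peak (quartiles 25.2% and 39.1%) and 39.3% of a shared domain. Neighbouring members in a domain were separated by a median of 432 bp (quartiles 194 bp and 729 bp), and their midpoints lay 779.5 bp apart. The gap was 427 bp between neighbours in shared domains, and gaps under 500 bp made up 57.0% and 57.4% of all gaps in the 2 kinds of domain. Spacing from edge to edge was thus alike, while midpoints were farther apart in shared domains (median 948 bp), where the peaks were wider.

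Higher-scoring members tended to sit nearer the domain's centre. Position was measured as the distance from the centre divided by the distance from centre to edge. Members within 0.25 of the centre had a median score of 9.71, and the median was 7.54 from 0.25 to 0.50, 6.30 from 0.50 to 0.75 and 5.39 from 0.75 to 1.00 (1260, 1135, 970 and 238 members). Single members carry part of this order, since 80.1% of them lay within 0.25 and their median score was 13.8. Without them the medians were 6.99, 7.43, 6.30 and 5.39, so the centre no longer stood above the next interval and only the outer intervals were lower. Among members that were not the highest of their domain, the 4 medians stayed between 4.95 and 5.31. Slightly more members lay left of the centre than right, with 1902 (52.6%) on the left. The margins differed in the same direction. Median left and right margins were 464.5 bp and 509 bp in domains with 1 member. With 2 or more members they were 457 bp and 489 bp, and in shared domains 467.5 bp and 510 bp. The source of this shift was not tested.

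At like replicate 2 score, domains without a replicate 1 peak held weaker peaks than shared domains, and from a score of 100 upward they were also wider. For replicate 2 scores from 200 to 400, the 362 domains without a replicate 1 peak had a median width of 2884 bp and a median highest peak of 16.9 (quartiles 11.6 and 24.2). The 167 shared domains of the same score range had medians of 2165 bp and 38.4 (quartiles 26.8 and 51.4). From 800 to 1600, the 30 domains without a replicate 1 peak were 6096 bp wide and held a median of 6 peaks, the highest at a median of 24.3. The 255 shared domains there were 3190 bp wide and held 2 peaks, the highest at 79.8. From 50 to 100 the highest peak had medians of 8.95 and 18.4, and there the widths were close (1664 bp and 1593 bp), with only 28 shared domains. In each of the 5 ranges examined, the upper quartile of the highest peak in domains without a replicate 1 peak lay below the lower quartile of the shared domains, by as little as 13.0 against 13.4 in the lowest range.

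The share of domains without a replicate 1 peak was lower at higher replicate 2 scores, from 95.3% for scores of 50 to 100 to 68.4% for 200 to 400 and 32.4% for 400 to 800, counting domains with a series-level peak. Across the 1629 domains with members, replicate 2 score and highest member score had a Spearman's rho of 0.49, and across the 904 shared domains rho was 0.71. No source used here says whether the 2 lists share reads, and domains are not independent samples, so these are descriptions. Replicate 2 score also went with domain width (rho 0.60) and with the number of members (rho 0.47). Over the 4 sets of domains by replicate 2 score, the median highest member rose from 8.42 in the lowest to 18.8 in the highest. The mean number of members per domain rose as well, from 1.48 to 3.38, and a maximum over more members tends to be higher. How much of the rise goes with member number was not tested. The median over all members showed no such rise, at 6.71, 7.77, 7.98 and 7.48 from the lowest set to the highest.

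**Figure D4:**
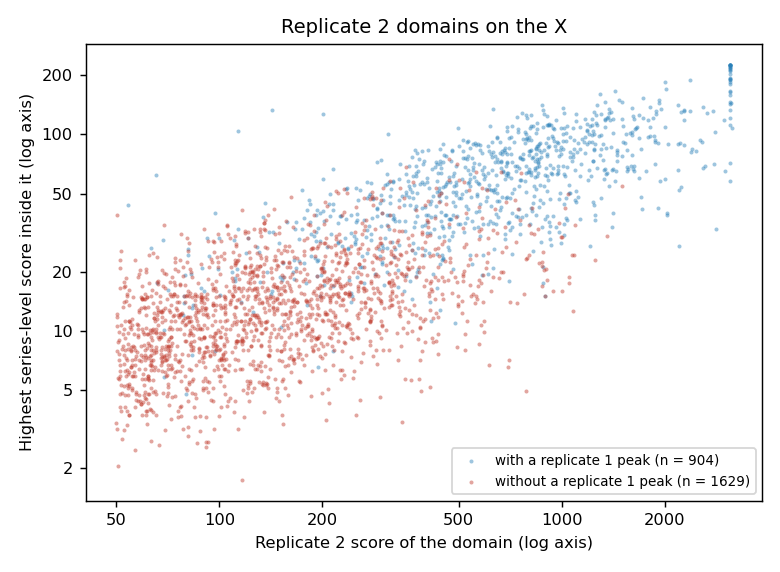
Highest series-level score inside each replicate 2 domain on the X against the domain's replicate 2 score, both on log axes, with 1 point per domain. At a given replicate 2 score the 1629 domains without a replicate 1 peak lie mostly below the 904 shared ones, for example at medians of 16.9 and 38.4 for replicate 2 scores from 200 to 400.

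The highest-scoring members were wider than most members, and 3 of the highest 10 stood alone in their domain. The highest lay on the X at 924324 to 924904, with a width of 581 bp, a series-level score of 75.02 and rank 328 in the whole list. It was the single member of a domain of 1510 bp that scored 469.4 in replicate 2, and the nearest replicate 1 peak was 7866 bp away. The next was at 2382021 to 2382900, 880 bp wide with a score of 70.6, again alone in its domain. The third, at 16375773 to 16376252, scored 68.0 and lay 1568 bp from a replicate 1 peak.

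The site at 16097735 to 16098672 scored 64.3, stood alone in a domain scoring 663.0 in replicate 2 and lay 27962 bp from any replicate 1 peak. It was the farthest from replicate 1 among the highest 10. Sites at 14349561 to 14350083 and 7430141 to 7430887 scored 64.2 and 64.0. The rest of the highest 10 began at 3280860, 15441187, 2439011 and 10079176 and scored 57.0 to 58.7. These 10 were 444 bp to 938 bp wide, against a member median of 330 bp, and their ranks in the whole list ran from 328 to 522. Their domains held 1 to 3 members and scored 314.4 to 759.7 in replicate 2. None of the 10 lay in any of the 3 domains with the highest replicate 2 score.

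The widest members were not the strongest. The widest lay at 5858542 to 5860062, 1521 bp across, and scored 17.4. A second wide site at 7793383 to 7794843 (1461 bp) scored 30.0 in a domain that scored 998.7 in replicate 2. The third, at 5865914 to 5867177 (1264 bp), scored 14.0 and belonged to a domain with 8 members. At the bottom of the range, 3 members scored exactly 1.30, at 6822374, 11330059 and 12796644. They lay inside domains with 10, 4 and 3 members.

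The domain with the highest replicate 2 score, 1503, lay at 3769033 to 3774058 and held 3 members. Their scores were 13.5, 9.59 and 54.4 from left to right, the last being 1176 bp wide. It ranked 118 among replicate 2 peaks on the X, and the nearest replicate 1 peak was 13156 bp away. The second domain, at 17234301 to 17239957 with a replicate 2 score of 1353, held 6 members that scored from 4.12 to 30.3. In it the highest member, at 30.3, was the last on the right, and the next, at 23.7, was the second from the left. The third, at 9607376 to 9615401 with 1253, held 8 members, of which 1 scored 22.9 and the others 2.02 to 9.82.

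The domains with the most members had no uniform replicate 2 score. The widest of all, at 5091885 to 5107353 (15469 bp), held 15 members scoring 1.60 to 28.7, with the highest 2 next to each other near the centre. Its replicate 2 score was only 100.9, below the median of its class. A domain of 14779 bp at 16824251 to 16839029 held 11 members of at most 10.7 and scored 108.7. By contrast, the domain at 16967379 to 16975505 held 11 members in 8127 bp and scored 801.7, with a highest member of 24.3. The domain at 5665347 to 5675528 scored 385.5, and its 11 members scored between 2.43 and 10.4 with no leading site. In the domain at 12465050 to 12476347, which scored 196.7, 1 member reached 17.1.

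**Figure D5:**
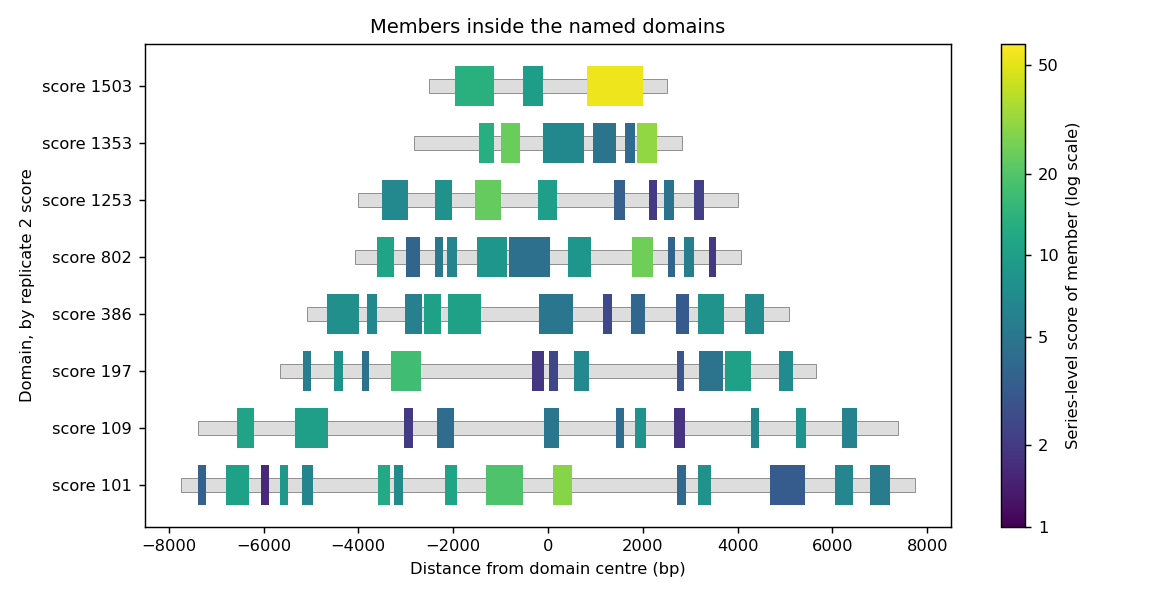
Members (coloured boxes, by series-level score on a log scale) inside the 8 domains named for their replicate 2 score, member number or width (grey bars), aligned at the domain centre with distance in bp. The domain scoring 1503 holds 3 members with a wide one of 54.4 on the right, while the widest domain, scoring 101, spreads 15 members over 15469 bp.

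Members lay some way from replicate 1 sites, which the rule in part fixes. The gap to the nearest replicate 1 peak was 688 bp at the least, 7662 bp at the median and 71104 bp at the most. For flanking peaks in shared domains the median gap was 1045 bp, and for peaks that touched neither replicate it was 6713 bp. Domains without a replicate 1 peak came no closer to one than 506 bp, about the size of the margin described above. Beyond 1 kb the member score hardly varied with this distance. The 11 members closer than that had a median of 5.66 (interval 2.76 to 12.6). Medians were 7.54 at 1 to 2 kb, 7.43 at 2 to 5 kb, 7.19 at 5 to 10 kb, 7.54 at 10 to 20 kb and 7.98 beyond 20 kb, where 442 members lay, and Spearman's rho between score and gap was -0.0018 over 3616 members.

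Since 64.4% of the X domains lacked a replicate 1 peak, such domains were often next to each other, and nothing is read from their order alone. Between shared domains there were 549 runs of them, with a median of 2 domains, and 185 of the runs were of 1 domain. The longest had 19 domains and spanned 15878150 to 16023319, a stretch of 145170 bp with 40 members. Their scores had a median of 8.99 and a maximum of 32.7. The 2 members farthest from replicate 1 lay there, at 15953188 to 15953364 with a score of 4.42 and at 15953554 to 15953864 with 9.37, and the third lay at 13793313 to 13793600 with 8.29.

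The longest stretches without a replicate 1 peak differed in how many members they held. The stretch from 15877104 to 16024467 held 271.4 members per Mb and that from 13730938 to 13858501 held 274.4, with a highest score of 51.2. The stretch from 4030808 to 4141129 held 199.4 per Mb. At the left end of the X, the stretches from 349 to 109373 and from 114328 to 229968 held 5 and 4 members, or 45.9 and 34.6 per Mb. A long absence of replicate 1 peaks thus went with many members in some places and few in others.

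Members were found along the whole chromosome. In 18 bins of 1 Mb, the last one shorter, there were 204.5 ± 25.1 members per Mb (SD over bins), with a lowest value of 164 in the first bin and a highest of 243 in the third. The first bin also had the fewest X peaks of the full bins, 352, and members were 46.6% of them. Members made up between 33.8% and 48.4% of the X peaks of a bin. The lowest share lay in the bin from 9000001 to 10000000 and the highest in the last bin. The median member score of a bin ran from 6.71 to 8.45.

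Few autosomal peaks met the same rule. It selected 95 of 868 autosomal peaks (10.9%), with chromosome III contributing 24 of them and chromosome V only 10. Their median score was 6.63 (interval 5.27 to 8.19) with a maximum of 26.3, and their median width was 291 bp. A further 14 autosomal peaks were flanking peaks. Of 129 autosomal replicate 2 peaks, 79 touched no replicate 1 peak, against 1638 of 2542 (64.4%) on the X. The shares of domains were thus closer than the shares of peaks, which were 10.9% and 40.1%. These 79 domains had a median replicate 2 score of 87.5, and 11 of them held no series-level peak. Of the 68 with a peak, 50 (73.5%) held a single one, against 38.2% on the X. The interval of the median score of the 95 autosomal peaks was wide and overlapped that of the X members (7.18 to 7.66), while the autosomal median lay below the X interval. Both intervals take peaks as independent, so their overlap does not show that the scores are alike.

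The membership threshold split like peaks at its edge. The member with the smallest overlap lay at 6310416 to 6310579, shared 14 bp with its domain and scored 5.14, followed by sites at 911155 and 1211124 with 26 bp and 31 bp and scores of 4.08 and 3.74. Just outside, the peak at 7896870 to 7897043 missed a domain by 5 bp and scored 3.42, and those at 1167982 and 14069494 missed by 35 bp and 40 bp with scores of 2.80 and 6.61. On the side of replicate 1, the nearest members lay at 7998050, 16696257 and 11871161, at 688 bp, 745 bp and 811 bp from a replicate 1 peak, with scores of 3.42, 2.48 and 2.91.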

How the data were processed

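The start, end and score of peaks were read from the lists of both ChIP replicates and from the series-level list. Alignment was with BWA to ce10, per the submitters' processing notes, and peaks came from MACS (replicates) and MACS v2 (series-level), per the file headers and source columns. The score is the authors' own, with no stated scale. Its lowest deposited value is 50.1 and 50.0 for the replicates but 1.30 for the series-level list, so it is not compared across lists. No source used here states the control, the filters or any pooling. Because replicates and series-level peaks come from different caller versions, a domain and the peaks in it were not called alike. The part of this in their widths and numbers was not tested.

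Overlap required 1 bp. Python 3.11.15 with numpy 2.4.6, pandas 2.3.3, scipy 1.17.1 and matplotlib 3.10.9 was used, and bedtools 2.31.1 gave the same 3616 members. The rule and the median interval were checked on simulated lists. Bins were counted by peak midpoint, up to the largest peak end on the X. The gene table at hand is for WBcel235, another build, and was not used, so no sequence features were examined. Named regions are the members highest and lowest in score, widest, farthest from and nearest to replicate 1 and least overlapping, the peaks just outside the rule, and the domains highest in score, widest and with most members. The members and these lists were chosen with earlier results of these data known.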

Additional observations from a re-analysis of the deposited data

How the results depend on the processing

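The number of members depended most on the replicate lists. It was 1840 with replicate 2 reduced to the length of replicate 1, and 1751 with replicate 2 peaks resized to the median replicate 1 width. Leaving out ChIP replicate 1 or 2 dropped that part of the rule and gave 6171 and 7826 peaks, with median scores of 8.72 and 6.23 and median widths of 367 bp and 281 bp. Under the other 8 alternatives the number stayed between 2481 and 4237. The share of X peaks that were members, 40.1%, was 20.4% with the reduced list and 19.4% with resizing. It was 68.5% without ChIP replicate 1 and 86.9% without ChIP replicate 2. Under the other 8 alternatives it ran from 30.1% with replicate 2 scores of at least 100 to 47.0% with replicate 1 scores of at least 100. The median score moved to 7.82 with replicate 1 scores of at least 100, 10.1 with series-level scores of at least 5, 9.59 with peaks merged within 500 bp and 9.33 with resized replicate 2 peaks. The median width moved to 339 bp, 386 bp, 504 bp and 401 bp under the same settings and to 344 bp with the reduced replicate 2 list. The median number of members per domain was 3 with the reduced list and 1 with the score minimum, with merging and with resizing. The number of domains with members, 1629, became 602 with the reduced list, 1056 with replicate 2 scores of at least 100 and 2533 without ChIP replicate 1, and their median replicate 2 score, 133.25, became 287.9, 199.95 and 216.6. The share of domains with 1 member was 18.9% with the reduced list, 58.1% with the score minimum, 63.2% with merging and 83.9% with resizing. The median score of members stayed above that of flanking peaks in each of the 10 alternatives that keep both classes, by 0.815 to 3.61. The values furthest from 0.95 were 1.94 with merging and 3.61 with resizing. All 10 leave peaks on the replicate 1 sites they use out of the flanking class and let members include the highest peak of a domain. They therefore cannot show whether peaks of like standing in a domain differ in score. No paired analysis was possible because no peak list of the inputs was used and no result comes from a test. Leaving out a replicate gives no domains without replicate 2 and no flanking class in either case. Without read counts in the lists used here, depth cannot be weighed against any absence of a replicate 1 peak.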
